A study of Mus musculus with 3 samples.

Results

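Small patches of high lamina signal outside the listed lamina-associated domains (LADs) were described in mouse embryonic fibroblasts. A patch was a run of 3 to 9 adjacent 10 kb bins, each averaging above 0.5 on the log2 scale in both of the DamID profiles, with no base in either list of LADs and more than 500 kb from the first and last fragment of an autosome. This rule found 86 patches among 12280 autosomal runs of any length above 0.5 in both profiles. The cells were wild type, of the C57BL/6 strain, and had received a murine retrovirus with an expression cassette for Dam-Lamin A, for Dam-Lap2b or for unfused Dam (the group Dam Only). Each of the 3 groups had 1 sample, so no value below has a replicate check and no p-value was computed. The patches were chosen by the mean log2 values of both profiles, and the levels below describe that choice. Errors given for a patch are standard errors over its fragments and cover the spread within a library only.

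DamID joins a protein to Dam, a methyltransferase of bacteria that leaves a mark on adenine in the sequence GATC wherever the protein touches DNA. Stretches flanked by marked sites are then amplified for sequencing, and free Dam serves as the measure of how accessible the DNA is. Lamin A builds filaments of the nuclear lamina, the meshwork under the inner nuclear membrane, and Lap2b is anchored in that membrane. LADs are long stretches of mostly gene-poor and little transcribed chromatin that lie against this meshwork. The lists hold no LAD under 100 kb, so contact on a smaller scale has no entry in them.

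Each value is the mean over fragments of the log2 ratio of a fusion to a reference taken to be the Dam-only library, in coordinates of mm9 counted from 1. Recovered reads, which are lower bounds, on the autosomes came to 147821995 in the reference, 132735269 in the Dam-Lamin A library and 142532056 in the Dam-Lap2b library. The median autosomal fragment held 8, 10 and 10 of them. The patches held a median of 106 fragments (58 to 230), 2503 Dam-Lamin A reads, 2725 Dam-Lap2b reads and 1321 reference reads. Profiles and lists went together crosswise. Where a bin lay only in the Dam-Lamin A list, the Dam-Lamin A profile was lower than where it lay only in the Dam-Lap2b list, by a mean difference of −0.41, while the Dam-Lap2b profile differed by 0.42. The rule treats both labels alike, so an exchange of labels would leave the same 86 patches and exchange only the names of their values.

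Signal above 0.5 in both profiles was rare outside the lists, and its runs were mostly shorter than a patch. Of 104455 bins with no base in a list, 2230 were above 0.5 in both profiles (2.13%), and 350 of these lay in patches. The others were mainly single: 1177 runs of 1 bin and 136 runs of 2 bins lay outside the lists. Patches of 3 bins numbered 42, of 4 bins 18, of 5 bins 15 and of 6 bins 5. Patches of 7, 8 and 9 bins numbered 2, 3 and 1. Outside the lists there was no run of 10 or more bins, while 2199 such runs on the autosomes all touched a listed LAD. Runs of 3 to 9 bins were themselves common, 3175 in all, and 97.3% of them touched a LAD. The patches were the remaining 86, with 3.50 Mb in total, or 0.335% of the bins outside the lists.

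The level of the patches lay between that of bins in both lists and that of short listed LADs. The Dam-Lamin A profile averaged 1.08 (median, quartiles 0.92 and 1.28, range 0.73 to 1.74), and the Dam-Lap2b profile 1.00 (0.89 and 1.13, range 0.68 to 1.52). Bins in both lists had medians of 1.37 and 1.41, and all bins outside the lists −1.05 and −0.92. Listed LADs of 100 to 200 kb, both lists merged, were the nearest class in length, and their 590 members had lower medians of 0.35 and 0.42. These LADs had to meet no minimum in each bin, as the patches did, so the order of the levels follows from the rule. At the threshold, the lowest bin of a patch was 0.501 on chromosome 5 (22180001 to 22230000), 0.504 on chromosome 9 (118020001 to 118050000) and 0.505 on chromosome 11 (47130001 to 47180000). Runs that missed narrowly were on chromosome 8 (85920001 to 85950000) and chromosome 3 (96910001 to 96950000), with lowest bins of 0.499 and 0.498. A longer run on chromosome 17 (21730001 to 21780000) missed with a lowest bin of 0.496. Its part from 21730001 to 21760000 met the rule and was itself a patch.

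**Figure D1:**
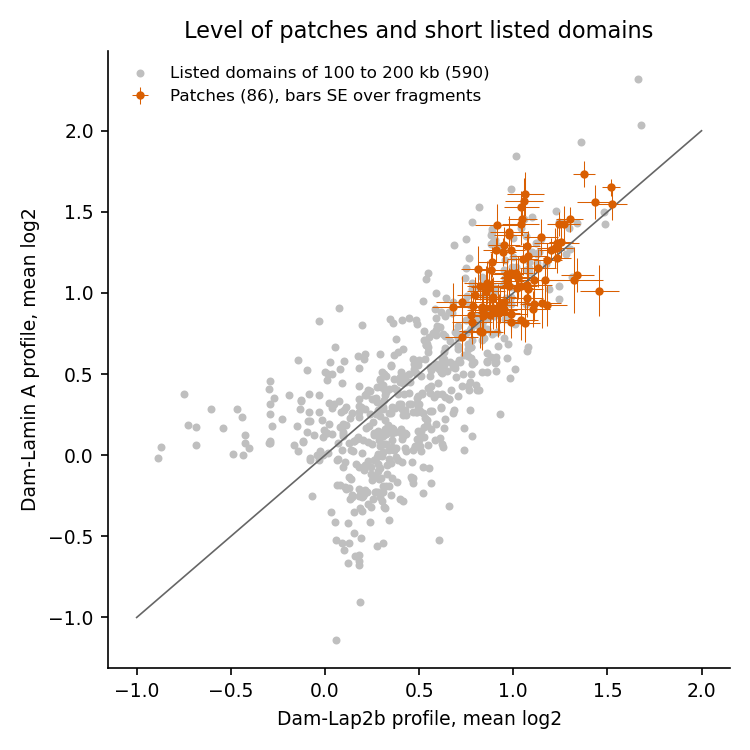
Mean log2 value of each patch (orange, bars are standard errors over fragments) and of each listed LAD of 100 to 200 kb (grey) in the Dam-Lap2b profile (horizontal) and the Dam-Lamin A profile (vertical), with the line of equal values. The 86 patches lie between 0.68 and 1.74, in the upper part of the cloud of 590 short LADs.

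The 6 patches highest in both profiles stood at 1.43 to 1.74 in the Dam-Lamin A profile, and each was parted from the nearest LAD by at least 1 bin below 0 in that profile. First was a 30 kb patch on chromosome 3 (106640001 to 106670000), with 1.55 ± 0.10 in the Dam-Lamin A profile and 1.52 ± 0.08 in the Dam-Lap2b profile over 120 fragments. Its 3 bins held 1.60, 1.79 and 1.34 in the former and 1.47, 1.70 and 1.43 in the latter. It was no clean island, since another patch ended 10 kb before it and the bin between them was at 1.03 and 0.35.

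The second was an 80 kb patch on chromosome 8 (19900001 to 19980000), with 1.65 ± 0.05 and 1.52 ± 0.05 over 230 fragments. The bins on its left and right were at −0.40 and −0.01 in the Dam-Lamin A profile and at −0.47 and −0.77 in the Dam-Lap2b profile. All 3 libraries were unusually deep there, with 336 Dam-Lamin A, 401 Dam-Lap2b and 131 reference reads per kb, against medians of 71.0, 74.4 and 35.2 over the patches. Its flanks were deep as well, with 214 Dam-Lamin A, 373 Dam-Lap2b and 387 reference reads per kb, so that the reference was lower in the patch than beside it. Farther out, stretches of bins without a fragment lay on both sides. The left stretch lay on the way to the nearest LAD, 120 kb from the patch.

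The longest patch, 90 kb on chromosome 2 (148580001 to 148670000), was also the highest of all in the Dam-Lamin A profile, at 1.74 ± 0.08, and had 1.37 ± 0.06 in the other. Its 9 bins ran from 0.78 to 2.31 in the Dam-Lamin A profile and from 1.16 to 2.07 in the Dam-Lap2b profile. It lay 37.0 kb from a LAD, and on the way to it the Dam-Lamin A profile went down to −1.60 and the Dam-Lap2b profile to −0.42, in different bins. A further patch on the same chromosome (146920001 to 147000000) was 80 kb long, with 1.32 ± 0.10 and 1.26 ± 0.06. There the Dam-Lamin A profile peaked at 2.40 in the 4th bin and fell to 0.54 in the last, while the Dam-Lap2b profile stayed between 1.02 and 1.44.

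A 60 kb patch on chromosome 3 (113230001 to 113290000) sloped instead of standing level. From left to right it went from 1.92 to 0.94 in the Dam-Lamin A profile and from 2.23 to 0.66 in the Dam-Lap2b profile. The bin on its left had under 5 fragments and no value, so its left edge is the edge of the data. The nearest LAD lay 47.5 kb to the right, and another lay 49.4 kb to the left. No bin between the left LAD and the patch had a value, so no low bin was seen to part them. The first bin of that LAD with a value was at 2.04 and 1.70. In 4 of the 86 patches a neighbouring bin had no value for this reason. The remaining 2 of the highest patches were 40 kb long, on chromosome 19 (12420001 to 12460000, 1.45 ± 0.08 and 1.30 ± 0.07) and chromosome 13 (83810001 to 83850000, 1.43 ± 0.11 and 1.27 ± 0.08). The former was nearly flat, between 1.42 and 1.49 in the Dam-Lamin A profile and between 1.18 and 1.50 in the Dam-Lap2b profile.

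**Figure D2:**
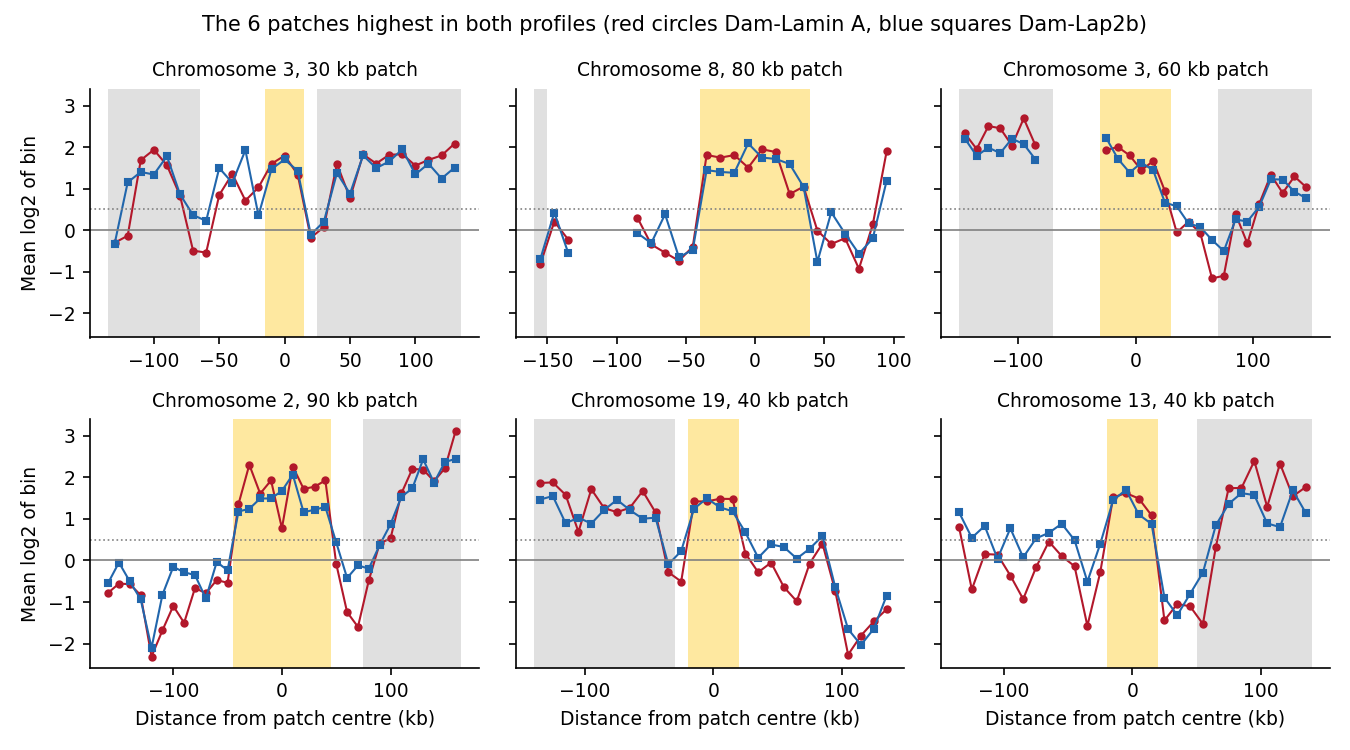
Mean log2 value of 10 kb bins against the distance from the patch centre in kb for the 6 patches highest in both profiles (yellow), with bins that hold listed sequence in grey, the threshold of 0.5 dotted and gaps where a bin had under 5 fragments. The bins of these patches stand at 0.66 to 2.31, and between each patch and the nearest listed LAD lies at least 1 bin below 0 in the Dam-Lamin A profile.

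At their edges the patches fell away in both profiles, but not to the level of all bins outside the lists. The rule sets every inside bin above 0.5 in both profiles. It ends a patch where at least 1 profile is not, so a drop follows from it. The outermost bin inside an edge had a median of 0.98 in the Dam-Lamin A profile and 0.93 in the Dam-Lap2b profile over 172 edges. The first bin outside was at 0.01 and 0.36 over the 166 edges where it held no listed sequence. Between 40 and 50 kb outside, the medians were −0.80 and −0.26 over 109 edges. This is above the −1.05 and −0.92 of all bins outside the lists, by more in the Dam-Lap2b profile than in the Dam-Lamin A profile. Those bins lay a median of 353 kb from a LAD and the patches 40.6 kb, and bins at matched distance were not compared.

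The surroundings of the patches differed between the profiles more than the patches did. The rule held both profiles above 0.5 within patches and set no such minimum beside them, so this contrast follows in part from it. Flanks, defined as the 3 bins on each side that held no listed sequence, had a median of −0.16 (quartiles −0.52 and 0.12) in the Dam-Lamin A profile and 0.20 (−0.05 and 0.37) in the Dam-Lap2b profile. They were higher in the Dam-Lap2b profile at 72 of 86 patches, and the Dam-Lamin A profile was the higher in 42.7% of all bins outside the lists. Flanks of short LADs had the same order, with medians of −0.89 and −0.51 and the higher value in the Dam-Lap2b profile at 82.7% of 579. The step from flank to patch had a median of 1.29 in the Dam-Lamin A profile and 0.83 in the Dam-Lap2b profile, and was the larger in the former at 72 patches. That there is a step in the patches follows in part from the rule. Short listed LADs gave 1.22 and 0.91, with the larger step in the Dam-Lamin A profile at 81.9% of the 579. With 5 kb bins, only 41 patches were found and the flanks in the Dam-Lamin A profile had a median of 0.032, so their sign depended on the bin size.

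**Figure D3:**
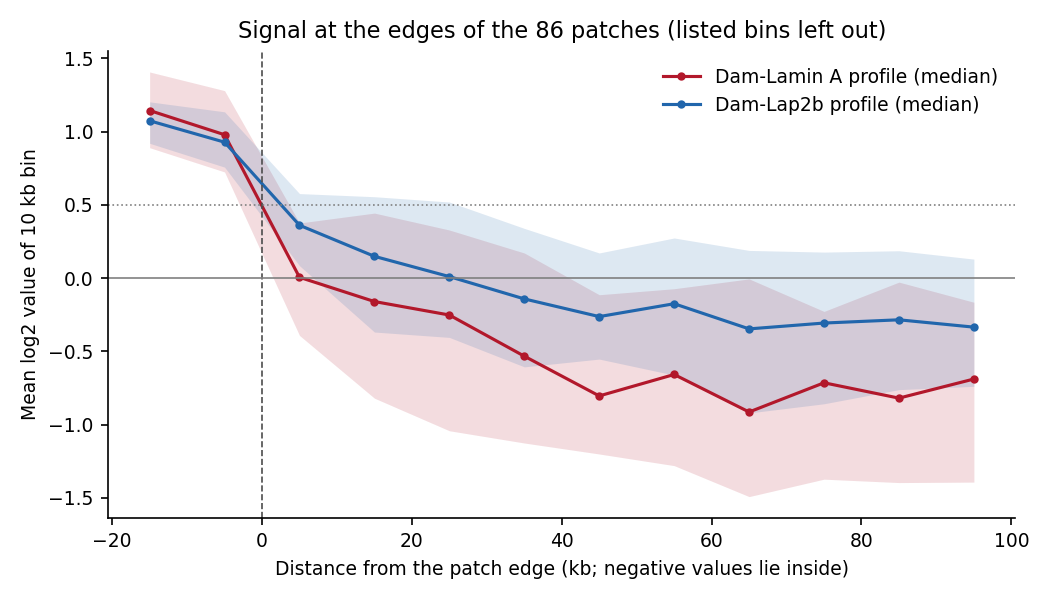
Median (line) and quartiles (band) of the mean log2 value of 10 kb bins against the distance from a patch edge in kb, with bins inside the patch at negative distances and bins in listed LADs left out. Both profiles drop across the edge, to 0.01 (Dam-Lamin A, red) and 0.36 (Dam-Lap2b, blue) in the first bin outside. The rule itself sets a drop in at least 1 profile there.

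Within the patches the order of the profiles was not firm. In 60 of 86 patches the Dam-Lamin A profile exceeded the other, with a median difference of 0.07 (quartiles −0.02 and 0.19). It did so in the 42.7% of all bins outside the lists given above and in 63.2% of those above 0.5 in both profiles, the latter a share near that of the patches. The median difference was −0.0017 with fragments of 200 to 1000 bp alone, −0.013 with summed reads and −0.11 with fragments weighted by length, so its sign depended on how fragments were averaged. Fragment length moved with it. In patches, fragments of 100 to 200 bp averaged 1.40 in the Dam-Lamin A profile and 1.02 in the Dam-Lap2b profile, and fragments of 1000 bp or longer 0.47 and 1.28.

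Single patches departed further from equality. In favour of Dam-Lamin A the difference was 0.55 ± 0.14 on chromosome 5 (110490001 to 110520000), 0.51 ± 0.14 on chromosome 7 (123190001 to 123220000) and 0.51 ± 0.16 on chromosome 6 (140330001 to 140360000). On chromosome 6 the profiles ran against each other, with bins of 1.81, 1.60 and 0.69 in the former and 0.53, 1.01 and 1.29 in the latter. In favour of Dam-Lap2b it was −0.44 ± 0.19 on chromosome 3 (106600001 to 106630000), −0.26 ± 0.13 on chromosome 19 (20360001 to 20400000) and −0.25 ± 0.14 on chromosome 11 (47130001 to 47180000). Across the 86 patches the levels of the profiles correlated with r = 0.595 (Pearson) and rho = 0.574 (Spearman). All points share the reference library, and the rule removed low values, so this is a description only. The highest bin was the same in both profiles in 34 patches.

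For each library, the recovered reads per kb of a patch were set against those of its flanks. The reference was lower than in the flanks at 77 of 86 patches, with a median log2 ratio of −0.75 (quartiles −1.19 and −0.38). Dam-Lamin A reads were higher at 74 patches (median 0.62) and Dam-Lap2b reads at 65 (median 0.30). In 53 patches both fusions were higher and the reference lower. All 3 libraries were lower in 9 patches and all 3 higher in 9 others. The median patch had 35.2 reference reads per kb, its flanks 57.9, all bins outside the lists 77.6 and bins in both lists 23.3. Of 579 short listed LADs, 79.1% had more Dam-Lamin A reads per kb than their flanks and 62.7% more Dam-Lap2b reads. More reference reads than in the flanks were found in 2.25% of short LADs and in 10.5% of patches. In short listed LADs the medians relative to the flanks were −0.91 in the reference, 0.42 in the Dam-Lamin A library and 0.11 in the Dam-Lap2b library. Both in patches and in short LADs, the median shift of the reference was thus larger in size than that of either fusion. These reads are part of the ratios that chose the patches. They were counted per kb and not per fragment. Patches held a median of 2.90 fragments per kb against 2.37 in their flanks, and short LADs 2.52 against 2.33. The part of this density in the shifts was not tested.

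**Figure D4:**
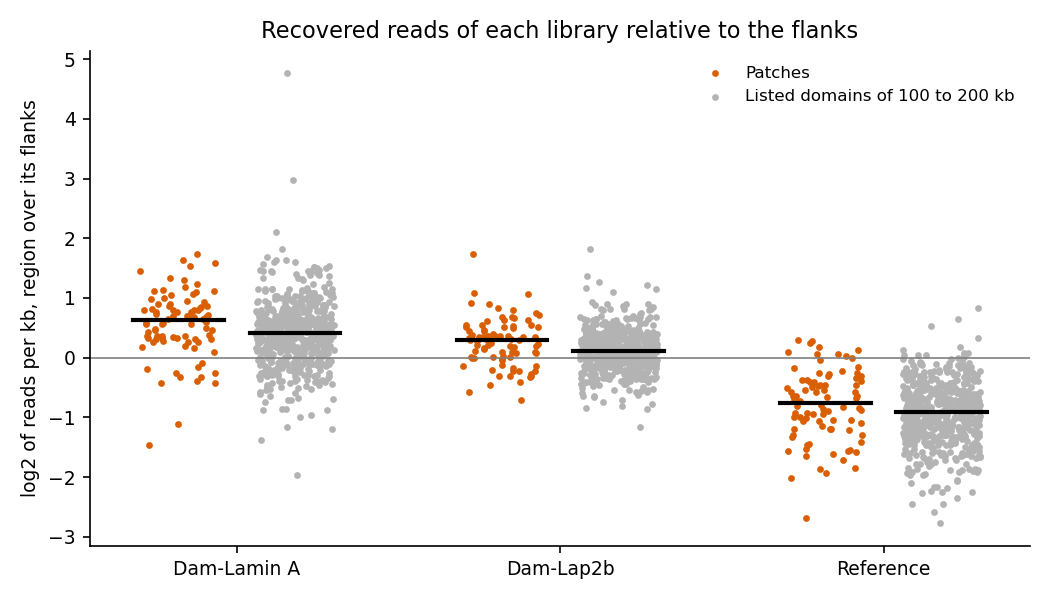
Log2 of recovered reads per kb in a region over those in its flanks, for each library, in patches (orange) and in listed LADs of 100 to 200 kb (grey), with the median as a black line. In patches the median is −0.75 in the reference, 0.62 in the Dam-Lamin A library and 0.30 in the Dam-Lap2b library.

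The position of the patches was skewed towards LADs. The rule used position only through the absence of listed bases and the distance from chromosome ends. The lists belong to the same profiles whose signal chose the patches, so the skew is not independent of that choice. The median distance to the nearest listed LAD was 40.6 kb (quartiles 22.3 and 80.6), against 353 kb for all bins outside the lists. Within 50 kb of a LAD lay 51 of 86 patches (59.3%), against 13.0% of bins outside the lists. These are unlike units, since a whole patch was measured from its nearer edge and the background by single bins. Counted by bin, 147 of the 350 bins in patches lay within 50 kb, as did 536 of the 2230 bins above 0.5 in both profiles. Shorter runs lay farther out, with a median of 75.4 kb for runs of 2 bins and 154 kb for runs of 1 bin. The LAD nearest to a patch had a median length of 453 kb. The share of bins above 0.5 in both profiles was 3.94% within 50 kb of a LAD, 4.19% between 50 and 100 kb, 1.93% between 200 and 500 kb and 0.946% beyond 500 kb. For bins in patches the same shares were 1.08%, 1.13%, 0.0899% and 0.0142%, a steeper fall.

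Most patches were parted from the nearest LAD by bins of low signal. Of 84 patches with at least 1 whole bin between them and the nearest LAD, 83 had a bin with a value there. Of these, 70 had a bin below 0 in each of the profiles on the way, and 3 had none below 0 in either. All bins outside the lists had medians of −1.05 and −0.92, so low bins are common there. Stretches of matched length were not compared. The lowest bin on the way in each profile had a median of −1.21 in the Dam-Lamin A profile and −0.65 in the Dam-Lap2b profile. Nearest of all, at 5.89 kb from a LAD, was a patch on chromosome 17 (54210001 to 54270000). The patch on chromosome 5 with the largest difference between profiles was next at 7.86 kb, and at 11.4 kb followed a patch on chromosome 1 (16750001 to 16780000). The first was high, with 1.42 ± 0.07 and 1.24 ± 0.06, and lay in a gap of 100.1 kb between LADs. The third had 1.01 ± 0.15 and 0.86 ± 0.10, with −0.31 and −0.18 in the bin towards the LAD.

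Beyond 500 kb from any LAD there were 2 patches. The farther, on chromosome 10 (23180001 to 23210000), lay 1070 kb from a LAD in a gap of 3989 kb and was among the lowest in the Dam-Lap2b profile, with 0.94 ± 0.16 and 0.73 ± 0.14. Its bins held 0.72, 1.07 and 0.97 in the Dam-Lamin A profile and 0.51, 0.88 and 0.73 in the Dam-Lap2b profile, and the bins beside it −1.13 and −1.95 in the former and −1.16 and −0.24 in the latter. The other, on chromosome 4 (88250001 to 88280000), lay 854 kb from a LAD, with 0.90 ± 0.11 and 1.11 ± 0.09. Its reference reads were 40.8 per kb against 147 in the flanks, and its fusion reads were also below the flanks, at 70.8 against 84.1 for Dam-Lamin A and 90.3 against 105 for Dam-Lap2b. The patch on chromosome 10 was found again under 5 of 11 alternative settings and that on chromosome 4 under 7 of 11. Both were missed with a threshold of 0.6, with bins shifted by 5 kb, with 5 kb bins and with fragments of 200 to 1000 bp alone, and the former also with summed reads and with fragments weighted by length. Next came patches on chromosome 8 (85630001 to 85660000, 316 kb, 1.04 ± 0.11 and 1.04 ± 0.09) and chromosome 11 (67530001 to 67570000, 267 kb, 0.91 ± 0.13 and 0.89 ± 0.08).

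Patches were found on all 19 autosomes and seldom together. They lay in 79 of the 1982 gaps between listed LADs, of which 7 held 2 patches and none held more. The gaps with a patch had a median of 300.1 kb, against 155 kb for all gaps and 421 kb for the 1151 gaps of 100 kb or longer. Only 5 patches had the next within 100 kb, on chromosomes 1 (at 2 places), 3, 10 and 11. Per 100 Mb of bins outside the lists, chromosome 3 had the most patches at 13.8 (8 patches), followed by chromosome 1 at 13.4 (10) and chromosome 11 at 13.1 (9). Chromosomes 14 and 18 had 1 patch each, or 2.33 and 2.59 per 100 Mb. Chromosome 11 was the lowest of all autosomes in the share of bins outside the lists above 0.5 in both profiles, at 1.34%.

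The patches were rich in GATC sites. The density of sites is a property of the genome, but it entered the rule through the minimum of 5 fragments per bin and through the mean, in which each fragment counted alike whatever its length. They held a median of 2.90 fragments per kb (quartiles 2.57 and 3.27), against 2.37 in their flanks, 2.40 in all bins outside the lists and 2.50 in bins in both lists. Patches exceeded their flanks in 73 of 86 cases. Short listed LADs held 2.52, and 72.0% of them exceeded their flanks. Shorter runs were denser still, with 3.10 for runs of 2 bins and 3.50 for runs of 1 bin. The densest patch had 5.07 fragments per kb, on chromosome 7 from 68490001.

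Over all bins outside the lists, the share above 0.5 in both profiles was larger where sites were denser. It was 0.783% with under 2 fragments per kb, 1.13% with 2.5 to 3, 4.25% with 3 to 3.5 and 19.7% with 3.5 or more. For bins in patches the shares were 0.168%, 0.289%, 0.564% and 1.90%. The same order was present among bins within 50 kb of a LAD, from 1.42% to 30.03% of bins above 0.5 and from 0.386% to 5.503% in patches. Fragments under 100 bp, which are more frequent where sites are dense, made up 28.4% of fragments in patches and 22.4% outside the lists. Outside the lists they averaged −0.58 and −0.76, above the −1.05 and −1.06 of fragments of 200 to 500 bp. Fragments of 1000 bp or longer averaged −1.15 and −0.72 there, so in the Dam-Lap2b profile the longest were the highest. In patches, fragments under 100 bp averaged 1.26 and 0.98, against 1.21 and 1.03 for fragments of 200 to 500 bp. With fragments of 200 to 1000 bp alone, 78 patches were found, and 61 of the 86 were found again. With fragments weighted by length, 52 patches were found and 42 were found again. The median of the mean fragment length, over all fragments of a patch, was 344 bp and 343 bp in these patches, 339 bp in the 86 and 418 bp in bins outside the lists. The part of fragment length in the number of patches was not tested. Fragments recovered without a read in any library made up a median of 1.81% in patches and 2.62% in short LADs.

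**Figure D5:**
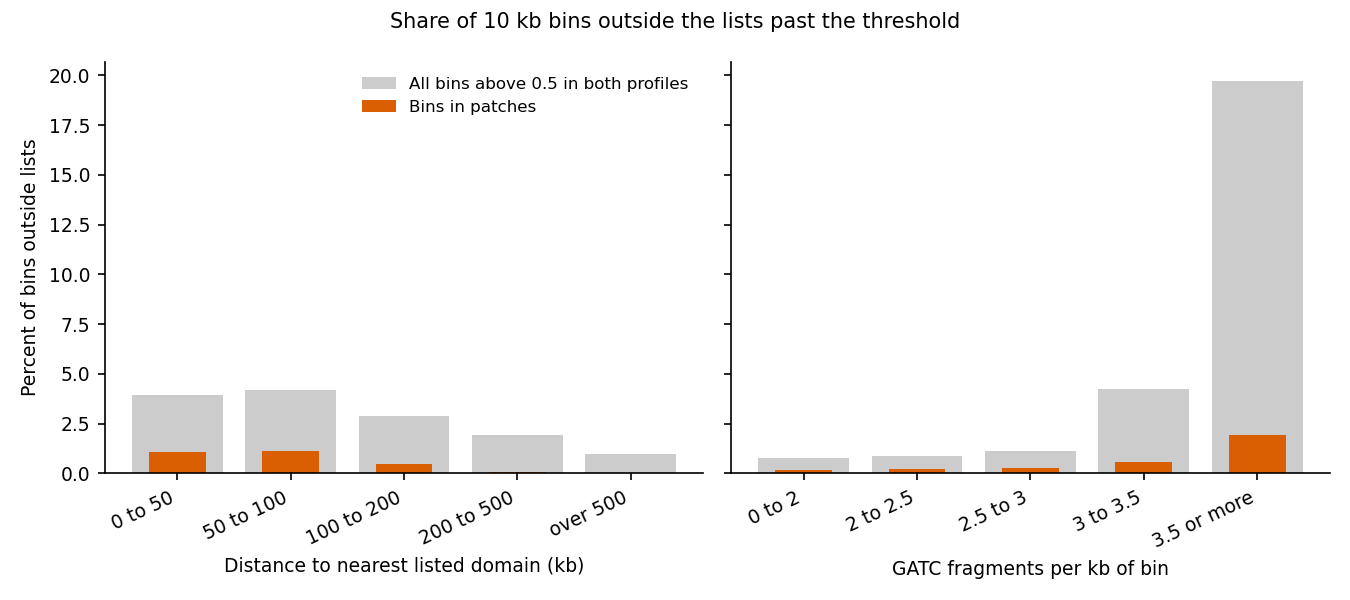
Percent of 10 kb bins outside the lists that were above 0.5 in both profiles (grey) and that lay in patches (orange, drawn in front), by distance to the nearest listed LAD in kb (left) and by GATC fragments per kb (right). The grey share falls from 3.94% within 50 kb to 0.946% beyond 500 kb, and reaches 19.7% in bins with 3.5 or more fragments per kb.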

How the data were processed

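DamID profiles and LAD lists of Dam-Lamin A and Dam-Lap2b were used, 1 sample each. No separate file of the Dam-only sample was used here. Bowtie and mm9 are named in the submitters' processing notes, and the counting, normalization and domain caller are not given in the sources used here. The profiles as deposited held log2 values per fragment between GATC sites, and the lists as deposited held positions only. Read from the values, a profile is log2 of (fusion reads + 1) over (reference reads + 1), shifted by a constant per profile. Reads were taken as the smallest integers that fitted both profiles at a fragment, with reference reads plus 1 of up to 5000, and were found for 99.9954% of 5972890 autosomal fragments. They are lower bounds and entered no test. Fragments were assigned by their middle to 10 kb bins with at least 5 fragments, in Python 3.11.15 with numpy 2.4.6 and pandas 2.3.3. Run finding and read recovery were tested on simulated data. Gaps and distances refer to both lists merged, and the short LADs compared were 100 to 200 kb long after merging and more than 500 kb from chromosome ends. The patches and comparisons were chosen with earlier results of these data known. Patches named were the 6 highest in the lower of both profiles, the 3 longest, the 4 farthest from a LAD, the 3 nearest, the 3 with the largest difference in each direction and the 3 just inside the threshold. The patch with the most GATC sites was added after the values were seen. Genes and bases in the patches were not analysed here, because the annotation at hand was of another build than mm9.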

Additional observations from a re-analysis of the deposited data

How the results depend on the processing

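No paired analysis was possible because each group had 1 sample. The 9 summary values were recomputed under 9 alternatives of the rule and 2 more chosen after seeing the data (fragments of 200 to 1000 bp, and means weighted by fragment length). A median was taken as moved when it left its 95% binomial interval, and a number or length when it changed by over 1.5 times. Of 99 values, 78 stayed, 17 moved and 4 changed sign, and no setting moved the median distance to a LAD or the mean fragment length outside its interval. A threshold of 0.4 gave 134 patches over 5.38 Mb, with levels of 0.97 (Dam-Lamin A) and 0.90 (Dam-Lap2b) and a Dam-Lap2b flank of 0.070. With 5 kb bins there were 41 patches over 1.57 Mb, with levels of 1.31 and 1.12, a difference of 0.16 and flanks of 0.032 (changed in sign) and 0.33. Weighting by fragment length gave 52 patches over 2.20 Mb, with levels of 1.00 and 1.14, a Dam-Lap2b flank of 0.35 and a difference of −0.11 (changed in sign). The difference also changed sign with fragments of 200 to 1000 bp (−0.0017) and with summed reads (−0.013), where the Dam-Lap2b level was 1.06. The causes were not tested. Bins shifted by 5 kb also gave 86 patches. Of the 86 patches described above, 63 were covered by these over at least 50% of their length, so the place of single patches depends on the grid. The spread among its fragments gave a patch level a median standard error of 0.11 (Dam-Lamin A) and 0.09 (Dam-Lap2b). This spread holds counting noise and differences between fragments alike.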

Other observations

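Some patches were found under every setting tried and others under few. Of the 86, 18 were found again under all 11 alternatives and 49 under at least 9, while 1 was found under 4. Of the 6 highest patches, those on chromosomes 2, 8 and 13 and the 60 kb patch on chromosome 3 were among the 18. The other 2 were lost only where patches within 20 kb of a LAD were left out. Also among the 18 was a pair on chromosome 11, named here after its values were seen, 17190001 to 17250000 and 17300001 to 17350000, parted by 50 kb. The former had 1.28 in the Dam-Lamin A profile and 1.23 in the Dam-Lap2b profile, and the latter 1.22 and 1.23.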
